A study of Mus musculus with 6 samples.

Results

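The genes of cholesterol synthesis and sterol regulation were followed in NIH3T3, a mouse embryonic fibroblast line, by RNA-seq. A list of 31 gene symbols was matched to the gene names of the deposited table, and 29 of them matched 1 row each among 20475 genes. The 29 comprised 18 synthesis enzymes, 5 regulators of the sterol-responsive transcription factors (SREBPs), and 6 genes of sterol sensing, transport and efflux. Hmgcs1 and Mvd, both on the list, were not analysed here. The matching used gene names only.

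In the first group, cells had received extracellular vesicles (EVs, membrane particles that cells release) of MDA-MB-231 cells, a line from a human breast cancer of the triple-negative type. The second group had received EVs of MCF10A cells, a line of human mammary epithelium that does not form tumours. The third group, the control, had received phosphate-buffered saline (PBS), the liquid in which EVs were suspended. Each group had 2 libraries, and all 6 came from the same line at passage 5, grown in medium with fetal bovine serum, with RNA extracted at 48 h. The labels do not say whether the 2 libraries of a group were separate cultures, and any p-value then reflects only the variation among these libraries, which may be technical.

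Cholesterol is built from acetyl-CoA through mevalonate, the isoprenoid farnesyl pyrophosphate, squalene and lanosterol. When sterols are scarce in the endoplasmic reticulum, Scap carries SREBP precursors to the Golgi, where they are cut to release a factor that switches on the synthesis genes. When sterols are plentiful, Insig proteins hold Scap back, while the liver X receptors (LXRs), activated by oxysterols, switch on the exporters Abca1 and Abcg1. Fibroblasts make cholesterol themselves and also take it up from serum lipoproteins.

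The recovered gene reads totalled 23945284 and 22451173 in the MDA-MB-231 EV libraries, 23126453 and 29315530 in the MCF10A EV libraries, and 23279661 and 27000816 in the PBS libraries. Values below are normalised reads, that is, the authors' reads adjusted to a common library size, and tests were made with limma on log2(value + 1), so log2 changes are on that scale. A gene is called changed at a Benjamini-Hochberg adjusted p under 0.05 over 15025 genes tested. Vesicle treatment was accompanied by wide change: 17.9% of all tested genes were called higher and 16.9% lower with MDA-MB-231 EVs against PBS, and 17.1% and 14.6% with MCF10A EVs against PBS. When whole reads were instead scaled by library totals, 67.8% of the calls with MDA-MB-231 EVs against PBS were upward, against 51.4% with the deposited scaling, and the median log2 change of all genes was 0.072, against 0.01 with the deposited scaling. All 11 fibroblast markers examined had reads, summing to 390572 to 400723 normalised reads with MDA-MB-231 EVs, 408316 to 420665 with MCF10A EVs and 478036 to 478255 with PBS. They did not move as 1: against PBS, 8 were called lower with MDA-MB-231 EVs and 7 with MCF10A EVs. Col3a1 was called higher with both (log2 changes 0.46 and 0.80). The lists of other cell types summed to far less than the fibroblast list and also moved with the groups. Cd14 alone, however, averaged 2992 normalised reads with PBS, a level like that of Abca1 (2900). Of 10 epithelial markers, 4, among them Epcam and Krt5, were at 0 throughout, and the list summed to 34.6 to 42.5 with MDA-MB-231 EVs, 38.6 to 49.2 with MCF10A EVs and 49.0 to 54.3 with PBS. Most of that sum was Krt8, while Cdh1, with 0 reads in both PBS libraries and 2 to 4 with vesicles, was called higher with both. Of 7 macrophage and leukocyte markers, Emr1 and Tyrobp were at 0, and the list, almost all of it Cd14, summed to 982 to 1044 with MDA-MB-231 EVs, 1774 to 1827 with MCF10A EVs and 3030.2 to 3129 with PBS. The 6 endothelial markers, none at 0 throughout and most of them Cdh5 reads, summed to 149.7 to 188, 291 to 339 and 354 to 362.5 in the same groups. Of 6 adipocyte markers, Cidec and Lep were at 0, and the sums were 427 to 459, 522 to 537 and 605 to 658, while of 5 hepatocyte markers Ttr was at 0 and the sums were 19.3 to 22.3, 21.1 to 25.7 and 39.3 to 50.6. The part of these markers in the results on sterol genes was not tested. In bulk RNA, fewer cells of a type and less RNA per cell cannot be told apart.

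Most of the members were lower after either vesicle. With MDA-MB-231 EVs against PBS, 20 of 29 fell, 2 rose and 7 were not called, where 34.8% of all tested genes were called, 16.9% lower and 17.9% higher. With MCF10A EVs against PBS, 21 fell, 2 rose and 6 were not called, where 31.7% of all tested genes were called, 14.6% lower and 17.1% higher. The median log2 change of the 29 was -0.29 with MDA-MB-231 EVs, beside 0.01 over all tested genes, and -0.26 with MCF10A EVs, beside 0. The falls were moderate, and the largest, -0.77 on the log2 scale, was that of Abca1 and Acss2 with MCF10A EVs. In 25 of 29 members the MDA-MB-231 EV and PBS libraries did not overlap, a pattern also found in 65.9% of all tested genes, and in 26 the MCF10A EV and PBS libraries did not overlap, beside 64.2%. The 2 vesicle comparisons share the PBS libraries, so the 19 members lower in both and the 2 higher in both (Scap and Nr1h5) are not 2 independent observations.

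**Figure D1:**
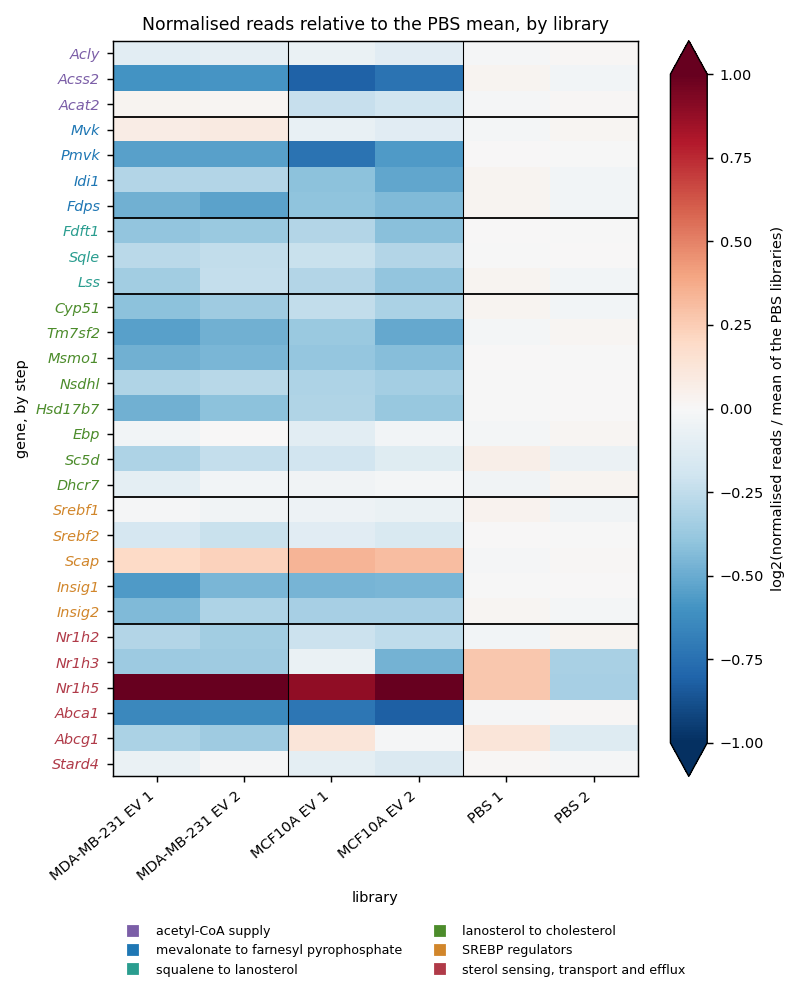
Normalised reads of each of the 29 members in each of the 6 libraries, scaled to the mean of the PBS libraries, with the groups in the order MDA-MB-231 EVs, MCF10A EVs and PBS. Most enzymes sit below the PBS libraries with both vesicles, whereas Nr1h5 and Scap sit above them.

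The 18 enzymes summed to 0.261% and 0.269% of the gene reads with MDA-MB-231 EVs, 0.2573% and 0.2503% with MCF10A EVs, and 0.3017% and 0.3005% with PBS. All 4 vesicle libraries lay below both PBS libraries in this sum. In the gene-by-gene test 14 of 18 enzymes fell and 0 rose with MDA-MB-231 EVs, where 16.9% of all tested genes fell and 17.9% rose. With MCF10A EVs 15 fell and 0 rose, where 14.6% of all tested genes fell and 17.1% rose. The same shares stand beside the counts by step given below against PBS. In limma on the deposited scaling, edgeR and DESeq2 alike, 0 enzymes were higher in either comparison at an adjusted p under 0.05 or at an unadjusted p under 0.05. With quantile scaling, 1 enzyme was higher with MDA-MB-231 EVs at an unadjusted p under 0.05 and 0 after adjustment in limma. With whole reads scaled by library totals, however, Acat2 (log2 change 0.090) and Mvk (0.15) were called higher with MDA-MB-231 EVs.

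At the entry of the pathway, where acetyl-CoA and its first condensation product are made, 2 of 3 genes fell with MDA-MB-231 EVs and 3 of 3 with MCF10A EVs. Acss2 (chromosome 2) makes acetyl-CoA from acetate in the cytosol, and it had 562 and 564 normalised reads with MDA-MB-231 EVs, 485 and 510.1 with MCF10A EVs, and 865 and 833 with PBS. All 4 vesicle libraries were clearly below the PBS libraries, with the MCF10A EV libraries lowest. Acss2 was 1.51-fold lower with MDA-MB-231 EVs (log2 change -0.59 ± 0.061 SE, limma adjusted p = 1.83e-06) and 1.71-fold lower with MCF10A EVs (log2 change -0.77 ± 0.061 SE, limma adjusted p = 2.86e-07). Acly (chromosome 11), ATP citrate lyase, makes acetyl-CoA from citrate and had 11978 and 12066 normalised reads with MDA-MB-231 EVs, 12298 and 11896 with MCF10A EVs, and 12775 and 12941 with PBS. The groups were close, but neither vesicle group overlapped with PBS. Acly fell with MDA-MB-231 EVs (log2 change -0.10 ± 0.027 SE, limma adjusted p = 0.0117) and with MCF10A EVs (log2 change -0.088 ± 0.027 SE, limma adjusted p = 0.0225). The Acly call with MDA-MB-231 EVs was lost when PBS replicate 1 or 2 or MDA-MB-231 EV replicate 1 or 2 was left out (log2 changes of -0.11, -0.088, -0.092 and -0.10), and the change was -0.0063 with quantile scaling. With MCF10A EVs the Acly call was lost without PBS replicate 1 (-0.10), PBS replicate 2 (-0.079) or MCF10A EV replicate 2 (-0.064), and the change was -0.043 with quantile scaling.

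Acat2 (chromosome 17), the cytosolic thiolase that joins 2 acetyl-CoA units into acetoacetyl-CoA, behaved differently between the vesicles. It had 8007 and 7926 normalised reads with MDA-MB-231 EVs, 6693 and 6816 with MCF10A EVs, and 7755 and 7920.5 with PBS. Only the MCF10A EV libraries stood apart, below the other 4. It fell with MCF10A EVs (log2 change -0.21 ± 0.028 SE, limma adjusted p = 3.61e-05), while the change with MDA-MB-231 EVs was not called (log2 change 0.024 ± 0.028 SE, limma adjusted p = 0.575). Acat2 is uncertain because Acat3, at 97.7% identity over 1477 aligned bases, can share its reads, and an end of Tcp1 is 98.7% identical over 445 bases. Acat3 averaged 6870 normalised reads with MDA-MB-231 EVs, 6240 with MCF10A EVs and 6503 with PBS.

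In the mevalonate section, which ends in farnesyl pyrophosphate, 3 of the 4 genes measured fell with each vesicle. Pmvk (chromosome 3), phosphomevalonate kinase, had 496 and 493 normalised reads with MDA-MB-231 EVs, 431 and 486 with MCF10A EVs, and 723 and 717 with PBS. All 4 vesicle libraries lay far below the PBS libraries. It was 1.46-fold lower with MDA-MB-231 EVs (log2 change -0.54 ± 0.070 SE, limma adjusted p = 1.89e-05) and 1.57-fold lower with MCF10A EVs (log2 change -0.65 ± 0.070 SE, limma adjusted p = 5.39e-06). Idi1 (chromosome 13), the isomerase that makes the reactive isoprene unit, had 4723 and 4728 normalised reads with MDA-MB-231 EVs, 4348 and 4043 with MCF10A EVs, and 5904 and 5678 with PBS. The PBS libraries were highest and the MCF10A EV libraries lowest. Idi1 fell with MDA-MB-231 EVs (log2 change -0.29 ± 0.036 SE, limma adjusted p = 1.34e-05) and with MCF10A EVs (log2 change -0.47 ± 0.036 SE, limma adjusted p = 2.69e-07). Fdps (chromosome 3), farnesyl pyrophosphate synthase, had 3524 and 3389 normalised reads with MDA-MB-231 EVs, 3715 and 3615 with MCF10A EVs, and 5005 and 4834 with PBS. Both vesicle groups lay well below PBS. The fall was 1.42-fold with MDA-MB-231 EVs (log2 change -0.51 ± 0.034 SE, limma adjusted p = 2.39e-08) and 1.34-fold with MCF10A EVs (log2 change -0.42 ± 0.034 SE, limma adjusted p = 3.57e-07). Mvk (chromosome 5), mevalonate kinase, was the exception, with 1154 and 1171 normalised reads with MDA-MB-231 EVs, 1045 and 1015 with MCF10A EVs, and 1083 and 1114 with PBS. The MDA-MB-231 EV libraries lay above PBS and the MCF10A EV libraries below it, yet no change against PBS was called (log2 change 0.082 ± 0.046 SE, limma adjusted p = 0.2 with MDA-MB-231 EVs and log2 change -0.092 ± 0.046 SE, limma adjusted p = 0.153 with MCF10A EVs). Idi1 and Fdps have near-identical pseudogenes in the annotation, and Fdps shares 929 identical bases with the same-strand gene Gm43738, which makes their read assignment uncertain.

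All 3 genes between farnesyl pyrophosphate and lanosterol fell with both vesicles. Fdft1 (chromosome 14), squalene synthase and the first enzyme committed to sterols, had 2980.1 and 3031 normalised reads with MDA-MB-231 EVs, 3184 and 2932 with MCF10A EVs, and 3917 and 3903 with PBS. Fdft1 fell with MDA-MB-231 EVs (log2 change -0.38 ± 0.039 SE, limma adjusted p = 1.78e-06) and with MCF10A EVs (log2 change -0.36 ± 0.039 SE, limma adjusted p = 6.59e-06). Sqle (chromosome 15), squalene epoxidase, a rate-limiting step, had 6800.0 and 6924 normalised reads with MDA-MB-231 EVs, 7027 and 6708 with MCF10A EVs, and 8159.6 and 8244 with PBS. Its decrease was of the same size to 2 decimals with MDA-MB-231 EVs (log2 change -0.26 ± 0.030 SE, limma adjusted p = 7.86e-06) and MCF10A EVs (log2 change -0.26 ± 0.030 SE, limma adjusted p = 1.4e-05). Lss (chromosome 10), which closes the ring system to give lanosterol, had 1949 and 2095 normalised reads with MDA-MB-231 EVs, 2024 and 1882 with MCF10A EVs, and 2521 and 2430.4 with PBS. It too fell with MDA-MB-231 EVs (log2 change -0.29 ± 0.046 SE, limma adjusted p = 0.000128) and with MCF10A EVs (log2 change -0.34 ± 0.046 SE, limma adjusted p = 4.31e-05). For each of these genes both PBS libraries lay above all 4 vesicle libraries, and the 2 vesicle groups overlapped. Fdft1 reads are uncertain, since a processed pseudogene is 97.4% identical over 1249 bases and exons overlap Ctsb on the opposite strand over 774 bases, and the strand counted is not given in the sources used here.

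Of the 8 genes that convert lanosterol to cholesterol, 6 fell with each vesicle. Cyp51 (chromosome 5), the lanosterol demethylase that opens this section, had 5591 and 5796 normalised reads with MDA-MB-231 EVs, 6234 and 5958 with MCF10A EVs, and 7536 and 7285 with PBS. The 3 groups were ordered without overlap, with MDA-MB-231 EVs lowest and PBS highest. Cyp51 fell with MDA-MB-231 EVs (log2 change -0.38 ± 0.033 SE, limma adjusted p = 3.44e-07) and with MCF10A EVs (log2 change -0.28 ± 0.033 SE, limma adjusted p = 1.26e-05). Msmo1 (chromosome 8), which oxidises the methyl groups to be removed, had 4542 and 4606 normalised reads with MDA-MB-231 EVs, 4837 and 4701 with MCF10A EVs, and 6340.3 and 6305 with PBS. The order of the groups was the one seen for Cyp51. Msmo1 was 1.38-fold lower with MDA-MB-231 EVs (log2 change -0.47 ± 0.030 SE, limma adjusted p = 1.48e-08) and 1.33-fold lower with MCF10A EVs (log2 change -0.41 ± 0.030 SE, limma adjusted p = 1.52e-07). Hsd17b7 (chromosome 1), the sterol ketone reductase of the same demethylation complex, had 1925 and 2012 normalised reads with MDA-MB-231 EVs, 2173 and 2057 with MCF10A EVs, and 2665 and 2694 with PBS. Again every vesicle library lay below PBS, with falls of 1.36-fold with MDA-MB-231 EVs (log2 change -0.44 ± 0.040 SE, limma adjusted p = 4.75e-07) and 1.27-fold with MCF10A EVs (log2 change -0.34 ± 0.040 SE, limma adjusted p = 1.23e-05).

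Nsdhl (chromosome X), the decarboxylating dehydrogenase of that complex, had 3673 and 3739 normalised reads with MDA-MB-231 EVs, 3659 and 3577 with MCF10A EVs, and 4523 and 4548 with PBS. Nsdhl fell with MDA-MB-231 EVs (log2 change -0.29 ± 0.031 SE, limma adjusted p = 2.95e-06) and with MCF10A EVs (log2 change -0.33 ± 0.031 SE, limma adjusted p = 2e-06). Tm7sf2 (chromosome 19), a sterol reductase, had the lowest level per kb of exon in this section, with 306 and 319.5 normalised reads with MDA-MB-231 EVs, 344 and 313 with MCF10A EVs, and 439 and 452 with PBS. It nevertheless had the largest change of the section, 1.42-fold lower with MDA-MB-231 EVs (log2 change -0.51 ± 0.083 SE, limma adjusted p = 0.000166) and 1.36-fold lower with MCF10A EVs (log2 change -0.44 ± 0.083 SE, limma adjusted p = 0.000788). Tm7sf2 shares 532 exon bases with Vps51 on the same strand, so its reads are uncertain. Sc5d (chromosome 9), the sterol desaturase, had 2532 and 2665 normalised reads with MDA-MB-231 EVs, 2742 and 2877 with MCF10A EVs, and 3261 and 3011 with PBS. It fell with MDA-MB-231 EVs (log2 change -0.27 ± 0.043 SE, limma adjusted p = 0.000156) and with MCF10A EVs (log2 change -0.16 ± 0.043 SE, limma adjusted p = 0.0114). The Sc5d call with MCF10A EVs was lost without PBS replicate 1 (-0.10), without MCF10A EV replicate 1 (-0.12), and without either MDA-MB-231 EV library (-0.16 each).

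Ebp and Dhcr7, late enzymes that shift and remove double bonds in the sterol ring, were not called in either comparison. Ebp (chromosome X) had 1609 and 1649 normalised reads with MDA-MB-231 EVs, 1531 and 1615 with MCF10A EVs, and 1625 and 1663 with PBS, and Dhcr7 (chromosome 7) had 1115 and 1172 normalised reads with MDA-MB-231 EVs, 1166 and 1175 with MCF10A EVs, and 1168 and 1219.7 with PBS. For Ebp the 95% interval of the log2 change was -0.10 to 0.077 with MDA-MB-231 EVs and -0.15 to 0.027 with MCF10A EVs. For Dhcr7 it was -0.16 to 0.039 with MDA-MB-231 EVs and -0.13 to 0.073 with MCF10A EVs. These intervals hold falls about as large as that of Acly, but not those of Fdps or Msmo1. They reflect only the variation among these libraries, on the deposited scaling.

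**Figure D2:**
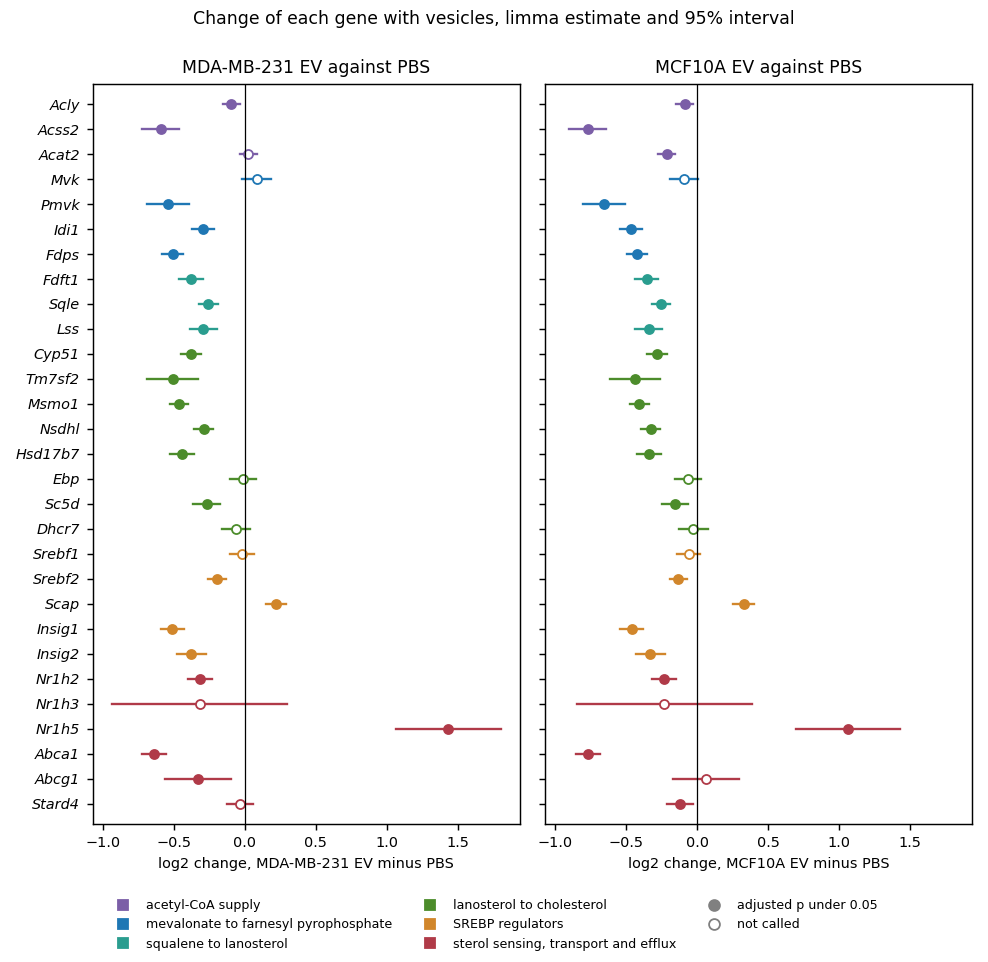
Log2 change of each member with MDA-MB-231 EVs and with MCF10A EVs, both against PBS, with 95% intervals from limma; members are grouped by role and the line at 0 is no change. Every enzyme change that was called lies left of 0, from Acly at -0.088 to Acss2 at -0.77, both with MCF10A EVs.

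Levels per length were compared in normalised reads per kb of annotated exon, in the PBS libraries. Acat2 stood highest at 3081 and Acly next at 2436, followed by Cyp51 at 1679 and Idi1 at 1652. The regulator Insig1, at 1244, stood above most enzymes per kb. The length used is that of all annotated exons of a gene together, so the order can differ from that in normalised reads. Nr1h3 at 12.5, Abcg1 at 34.9 and Nr1h5 were the lowest members. Nr1h5 stood at 95.7 per kb with MDA-MB-231 EVs, 74.2 with MCF10A EVs and 35.9 with PBS.

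Stretches of 250 bases upstream of the transcription start were examined for short motifs, on RefSeq sequence of build GRCm38.p6. A row of promoters was found for 24 members, in 33 windows, some of them overlapping windows of 1 gene. The CCAAT box (CCAAT on either strand, the letters bound by NF-Y) was present in 18 of the 33 windows, or 54.5%, beside 33.8% of 32851 windows of all genes. The GC box (GGGCGG on either strand, bound by Sp1) was present in 23, or 69.7%, beside 32.7% of all windows. CACGTG, the E-box, was in 6 windows, or 18.2%, beside 6.02%. The sterol regulatory core TCACNCCAC, on either strand, was in 0 member windows and in 1.05% of all windows, and the LXR direct repeat with a 4-base spacer was in 0 and 0.0913%. With shares this low over all windows, 0 in 33 windows cannot show whether the members lack such elements. Variants of these letters were not searched. These matches are letters in a window and not measured binding. The 4 sequences first shown are of genes lower with both vesicles: Insig1 at chr5:28071162-28071411 on the plus strand, Idi1 at chr13:8885356-8885605 on the plus strand, Cyp51 at chr5:4104698-4104947 on the minus strand and Msmo1 at chr8:64733579-64733828 on the minus strand. Acat2, at chr17:12960726-12960975 on the minus strand, is shown because the vesicles differed at it, and Nr1h5, at chr3:102964134-102964383 on the minus strand, because it rose. Capitals mark CCAAT boxes and GC boxes, in either orientation, and each sequence reads 5′ to 3′ towards the start site.
Insig1: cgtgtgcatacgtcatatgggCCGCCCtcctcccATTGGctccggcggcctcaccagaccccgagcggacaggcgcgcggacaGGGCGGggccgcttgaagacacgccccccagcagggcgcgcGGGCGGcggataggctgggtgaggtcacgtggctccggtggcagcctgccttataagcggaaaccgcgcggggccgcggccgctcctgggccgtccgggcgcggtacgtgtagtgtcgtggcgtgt
Idi1: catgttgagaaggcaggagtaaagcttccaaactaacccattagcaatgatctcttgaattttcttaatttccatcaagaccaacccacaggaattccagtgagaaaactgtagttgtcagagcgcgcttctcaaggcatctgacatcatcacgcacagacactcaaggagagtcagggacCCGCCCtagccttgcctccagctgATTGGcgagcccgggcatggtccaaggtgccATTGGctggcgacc
Cyp51: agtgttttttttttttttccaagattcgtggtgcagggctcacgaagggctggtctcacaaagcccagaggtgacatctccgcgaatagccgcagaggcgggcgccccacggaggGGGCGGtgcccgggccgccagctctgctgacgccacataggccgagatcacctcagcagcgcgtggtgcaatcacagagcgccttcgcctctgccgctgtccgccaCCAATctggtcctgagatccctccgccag
Msmo1: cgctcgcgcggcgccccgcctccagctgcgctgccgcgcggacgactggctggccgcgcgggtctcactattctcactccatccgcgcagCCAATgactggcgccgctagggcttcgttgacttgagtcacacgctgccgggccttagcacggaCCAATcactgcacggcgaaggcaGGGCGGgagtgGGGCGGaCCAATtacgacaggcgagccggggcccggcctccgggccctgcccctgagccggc
Acat2: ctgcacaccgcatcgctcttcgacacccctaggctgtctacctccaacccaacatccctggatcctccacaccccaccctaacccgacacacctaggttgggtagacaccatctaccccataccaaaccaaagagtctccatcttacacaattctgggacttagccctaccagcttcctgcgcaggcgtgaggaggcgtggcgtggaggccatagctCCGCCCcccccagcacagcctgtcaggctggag
Nr1h5: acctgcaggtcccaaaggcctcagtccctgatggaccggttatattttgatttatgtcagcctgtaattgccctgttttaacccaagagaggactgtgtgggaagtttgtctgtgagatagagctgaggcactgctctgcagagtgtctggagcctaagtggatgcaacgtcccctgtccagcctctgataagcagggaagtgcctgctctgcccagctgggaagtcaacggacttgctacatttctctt
Msmo1 had 3 CCAAT and 2 GC boxes, Idi1 2 and 1, Insig1 1 and 3, and Cyp51 1 of each. Acat2 had 0 CCAAT boxes and 1 GC box, and Nr1h5 had neither.

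Of the 5 SREBP regulators, 3 fell and 1 rose with each vesicle. Over all tested genes 16.9% fell and 17.9% rose with MDA-MB-231 EVs, and 14.6% and 17.1% with MCF10A EVs. Insig1 (chromosome 5) and Insig2 (chromosome 1) encode the proteins that retain Scap in the endoplasmic reticulum, and Insig1 is itself an SREBP target. Insig1 averaged 2702 ± 138 normalised reads with MDA-MB-231 EVs, 2793 ± 5.31 with MCF10A EVs and 3848 ± 25.5 with PBS (SD, n = 2 each). It had 2604 and 2799 normalised reads with MDA-MB-231 EVs, 2789 and 2797 with MCF10A EVs, and 3830.2 and 3866 with PBS, so that every vesicle library lay well below both PBS libraries. Insig1 was 1.43-fold lower with MDA-MB-231 EVs (log2 change -0.51 ± 0.038 SE, limma adjusted p = 6.42e-08) and 1.38-fold lower with MCF10A EVs (log2 change -0.46 ± 0.038 SE, limma adjusted p = 4.02e-07). Insig2 had 1303 and 1427 normalised reads with MDA-MB-231 EVs, 1411 and 1405 with MCF10A EVs, and 1799.8 and 1744 with PBS. Its fall, smaller than that of Insig1, was called with MDA-MB-231 EVs (log2 change -0.38 ± 0.047 SE, limma adjusted p = 1.46e-05) and with MCF10A EVs (log2 change -0.33 ± 0.047 SE, limma adjusted p = 7.76e-05).

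Srebf2 (chromosome 15) encodes SREBP-2, the main activator of the cholesterol genes, and had 7135 and 6884 normalised reads with MDA-MB-231 EVs, 7407 and 7238 with MCF10A EVs, and 8028 and 8026 with PBS. Its PBS libraries agreed closely and lay above the other 4. The decrease was modest with MDA-MB-231 EVs (log2 change -0.20 ± 0.029 SE, limma adjusted p = 8.29e-05) and with MCF10A EVs (log2 change -0.13 ± 0.029 SE, limma adjusted p = 0.00275). With MCF10A EVs its call was lost without PBS replicate 1 (-0.13) or PBS replicate 2 (-0.13), and with MDA-MB-231 EVs its change was -0.13 when scaled by library totals. Scap (chromosome 9), the sterol-sensing escort, moved the other way, with 3109 and 3172 normalised reads with MDA-MB-231 EVs, 3424 and 3357 with MCF10A EVs, and 2682 and 2727 with PBS. Every vesicle library lay above both PBS libraries. Scap rose 1.16-fold with MDA-MB-231 EVs (log2 change 0.22 ± 0.033 SE, limma adjusted p = 0.000108) and 1.25-fold with MCF10A EVs (log2 change 0.33 ± 0.033 SE, limma adjusted p = 3.57e-06). Srebf1 (chromosome 11), whose SREBP-1 products act chiefly on fatty acid genes, was not called and had 2068 and 2034 normalised reads with MDA-MB-231 EVs, 2005 and 1984 with MCF10A EVs, and 2135 and 2026 with PBS. Its 95% interval was -0.10 to 0.063 with MDA-MB-231 EVs and -0.14 to 0.023 with MCF10A EVs.

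Among the 6 genes of sensing, transport and efflux, 3 fell and 1 rose with each vesicle. Beside this, 16.9% of all tested genes fell and 17.9% rose with MDA-MB-231 EVs, and 14.6% and 17.1% with MCF10A EVs. Nr1h2 and Abca1 fell with both vesicles, Abcg1 with MDA-MB-231 EVs and Stard4 with MCF10A EVs. Abca1 (chromosome 4), the exporter that loads cholesterol onto apolipoprotein A-I and a classic LXR target, had 1859.7 and 1863 normalised reads with MDA-MB-231 EVs, 1756 and 1646 with MCF10A EVs, and 2881 and 2919 with PBS. All 4 vesicle libraries lay far below the PBS libraries, and those of MCF10A EVs were lowest. It was 1.56-fold lower with MDA-MB-231 EVs (log2 change -0.64 ± 0.040 SE, limma adjusted p = 1.11e-08) and 1.71-fold lower with MCF10A EVs (log2 change -0.77 ± 0.040 SE, limma adjusted p = 4.08e-09). Of the 2543 genes that fell with MDA-MB-231 EVs, 455 fell further than Abca1, and of the 2193 that fell with MCF10A EVs, 244 did. Nr1h2 (chromosome 7), LXR-beta, the ubiquitous LXR, had 1832 and 1761 normalised reads with MDA-MB-231 EVs, 1936 and 1882 with MCF10A EVs, and 2205 and 2280.2 with PBS. It fell with MDA-MB-231 EVs (log2 change -0.32 ± 0.040 SE, limma adjusted p = 1.27e-05) and with MCF10A EVs (log2 change -0.23 ± 0.040 SE, limma adjusted p = 0.000361), its groups ordered without overlap.

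Nr1h5 (chromosome 3), the farnesoid X receptor beta, which binds lanosterol in the mouse, had the largest change of any member. It had 290.4 and 252 normalised reads with MDA-MB-231 EVs, 188 and 233 with MCF10A EVs, and 123 and 80.7 with PBS. Each vesicle library held more than the higher PBS library, and the MDA-MB-231 EV libraries were above those of MCF10A EVs. It was 2.7-fold higher with MDA-MB-231 EVs (log2 change 1.43 ± 0.17 SE, limma adjusted p = 9.39e-06) and 2.09-fold higher with MCF10A EVs (log2 change 1.06 ± 0.17 SE, limma adjusted p = 0.000233). Of 2688 genes that rose with MDA-MB-231 EVs, 40 had a larger log2 change, and of 2571 that rose with MCF10A EVs, 37 had. The replicate spread of Nr1h5 was wide, at 271 ± 27.1 normalised reads with MDA-MB-231 EVs, 210.3 ± 31.9 with MCF10A EVs and 102 ± 29.9 with PBS (SD, n = 2 each), and the call with MCF10A EVs was lost in limma without a mean-dependent prior (adjusted p = 0.0665).

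Abcg1 (chromosome 17), the exporter to high-density lipoprotein, had 204 and 199 normalised reads with MDA-MB-231 EVs, 277 and 253 with MCF10A EVs, and 276 and 233 with PBS. Only the MDA-MB-231 EV libraries lay below the other 4. It fell with MDA-MB-231 EVs (log2 change -0.33 ± 0.11 SE, limma adjusted p = 0.0286), and with MCF10A EVs the change was not called (log2 change 0.060 ± 0.11 SE, limma adjusted p = 0.728). The call with MDA-MB-231 EVs was lost without PBS replicate 1 (log2 change -0.21), MDA-MB-231 EV replicate 1 (-0.35) or 2 (-0.31), either MCF10A EV library (-0.33 each), and in DESeq2 (adjusted p = 0.114). Stard4 (chromosome 18), a carrier that moves cholesterol between membranes, had 1437 and 1497 normalised reads with MDA-MB-231 EVs, 1405 and 1365 with MCF10A EVs, and 1518 and 1493 with PBS. It fell with MCF10A EVs (log2 change -0.12 ± 0.043 SE, limma adjusted p = 0.0441) and was not called with MDA-MB-231 EVs (log2 change -0.037 ± 0.043 SE, limma adjusted p = 0.555), and the difference between the vesicles was not called either (log2 change 0.083 ± 0.043 SE, limma adjusted p = 0.225). The Stard4 call did not survive leaving out any 1 of the 6 libraries, with log2 changes from -0.14 to -0.10. Nr1h3 (chromosome 2), LXR-alpha, was near the bottom of the range with 24.4 and 24.5 normalised reads with MDA-MB-231 EVs, 29.9 and 22.6 with MCF10A EVs, and 37.7 and 25 with PBS. It was not called, and its 95% interval was -0.94 to 0.30 with MDA-MB-231 EVs and -0.85 to 0.38 with MCF10A EVs.

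**Figure D3:**
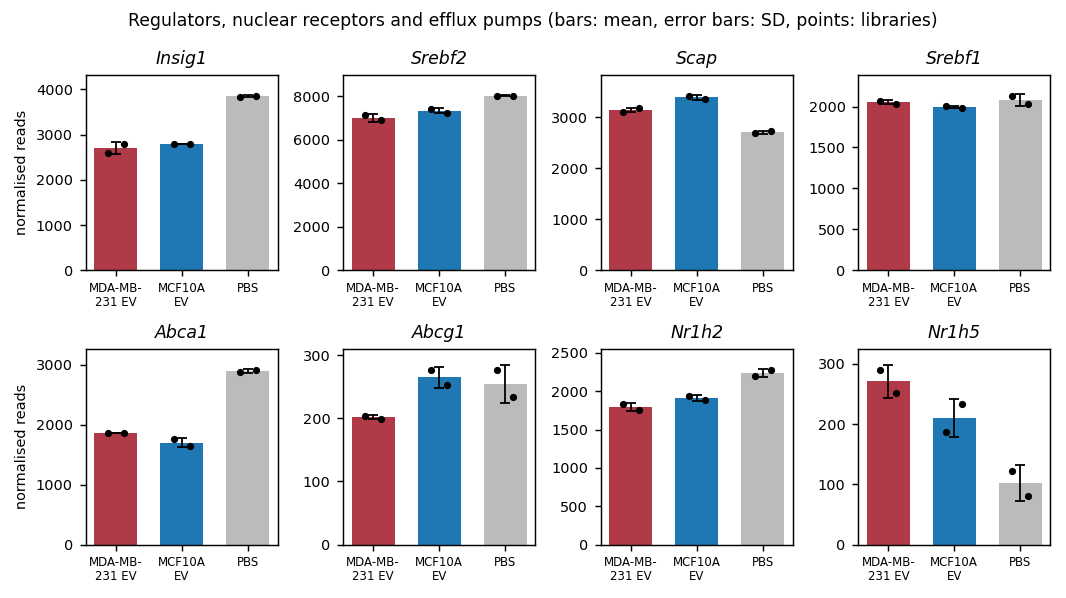
Normalised reads in each library for Insig1, Srebf2, Scap, Srebf1, Abca1, Abcg1, Nr1h2 and Nr1h5. The groups are in the order MDA-MB-231 EVs, MCF10A EVs and PBS. Points are libraries, bars are group means and error bars are SD. Insig1 and Abca1 lie lower with both vesicles than with PBS, whereas Scap and Nr1h5 lie higher.

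The 2 vesicles were then compared with each other directly. Of the 29 members, 4 were called higher with MDA-MB-231 EVs than with MCF10A EVs, 2 were called lower and 23 were not called. Over all tested genes 16.9% were called, 6.84% higher and 10.1% lower, a share near that of the members. The libraries of the 2 vesicles did not overlap in 19 members, beside 56.0% of all tested genes. The median log2 change of the members was -0.024, beside -0.001 over all tested genes. Over all tested genes, 40.4% of the calls were upward, against 50.7% with quantile scaling and 61.7% with library totals.

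The members higher with MDA-MB-231 EVs than with MCF10A EVs were Acat2 (log2 change 0.24 ± 0.028 SE, limma adjusted p = 3.21e-05), Mvk (log2 change 0.17 ± 0.046 SE, limma adjusted p = 0.0176), Idi1 (log2 change 0.17 ± 0.036 SE, limma adjusted p = 0.00412) and Abca1 (log2 change 0.13 ± 0.040 SE, limma adjusted p = 0.0351). Of these, Acat2, Mvk and Idi1 are enzymes, as are 18 of the 29 members. Idi1 and Abca1 had fallen further with MCF10A EVs than with MDA-MB-231 EVs against PBS. The members lower with MDA-MB-231 EVs were Scap (log2 change -0.11 ± 0.033 SE, limma adjusted p = 0.0335) and Abcg1 (log2 change -0.39 ± 0.11 SE, limma adjusted p = 0.0229). Of these 6 calls only that of Acat2 was kept whichever library was left out, and without a mean-dependent prior limma called 0 of the 29 (at an unadjusted p under 0.05, 5 were higher and 2 lower). The Mvk call was lost without either MCF10A EV library or either MDA-MB-231 EV library (log2 changes from 0.15 to 0.19), and so was that of Abcg1 (log2 changes from -0.45 to -0.32). The Idi1 call was lost without MCF10A EV replicate 2 or either MDA-MB-231 EV library (log2 changes from 0.12 to 0.17). The Scap call was lost without any 1 of the 6 libraries (log2 changes from -0.12 to -0.10), and that of Abca1 without any 1 except MCF10A EV replicate 1 (log2 changes from 0.084 to 0.13).

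For the 23 uncalled members the 95% intervals give the range of difference allowed by the variation among these libraries, on the deposited scaling. Variation beyond these libraries and shifts between scalings are not included. Sqle had an interval of -0.066 to 0.064, Insig1 of -0.13 to 0.031 and Fdps of -0.16 to -0.012. The widest were those of Nr1h3, -0.70 to 0.53, and Nr1h5, 0.0023 to 0.74. For Nr1h5 edgeR on whole reads did call the difference (log2 change 0.37, adjusted p = 0.033), whereas limma did not (adjusted p = 0.172). Acss2 was not called either (log2 change 0.18 ± 0.061 SE, limma adjusted p = 0.0589), but passed the threshold with library-total scaling (log2 change 0.22, limma adjusted p = 0.0194). It also passed with quantile scaling (0.19, limma adjusted p = 0.0471), a filter of 5 CPM (0.18, limma adjusted p = 0.0436) and, barely, TMM scaling (0.18). Under the other alternatives Acss2 stayed uncalled.

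**Figure D4:**
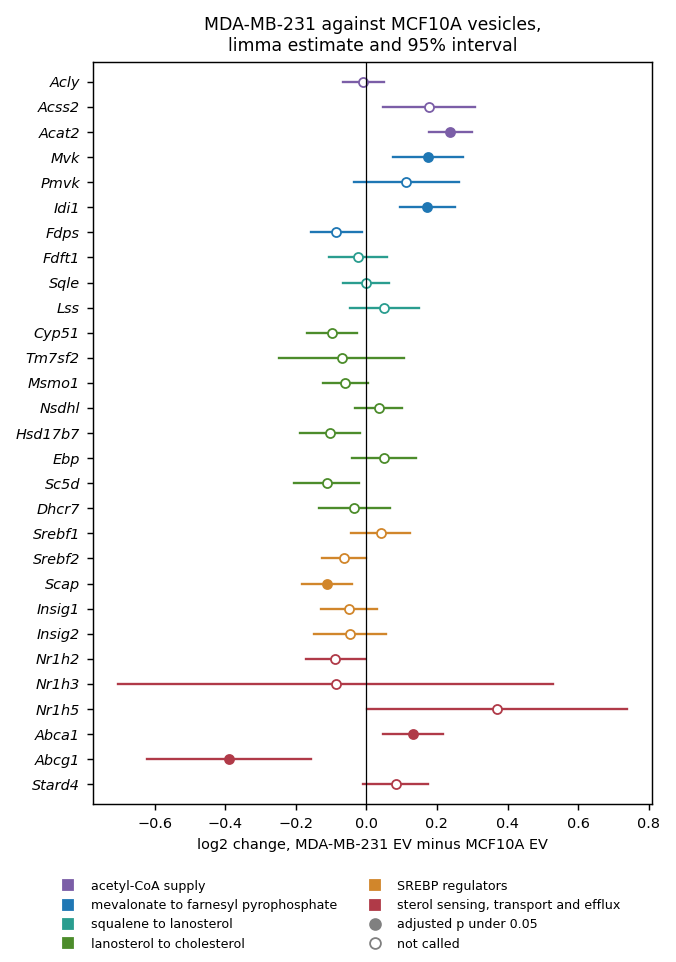
Log2 change of each member with MDA-MB-231 EVs against MCF10A EVs, with 95% intervals from limma. Most intervals include or lie close to 0; Acat2, Mvk, Idi1 and Abca1 were called higher and Scap and Abcg1 lower.

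A separate list of 54 other genes of sterol uptake, transport, esterification and turnover gave 45 tested genes. With MDA-MB-231 EVs against PBS 15 of 45 fell and 4 rose, where 16.9% of all tested genes fell and 17.9% rose, and the median log2 change was -0.067. With MCF10A EVs 10 fell and 3 rose, where 14.6% of all tested genes fell and 17.1% rose, and the median was -0.034. Osbpl8, an oxysterol-binding-protein relative at membrane contact sites, had 3007 and 2934 normalised reads with MDA-MB-231 EVs, 3393 and 3365 with MCF10A EVs, and 4831 and 4765 with PBS. It fell with MDA-MB-231 EVs (log2 change -0.69 ± 0.032 SE, limma adjusted p = 3.84e-10) and with MCF10A EVs (log2 change -0.51 ± 0.032 SE, limma adjusted p = 2.75e-08). Gramd1b, a carrier that moves accessible cholesterol from the plasma membrane to the endoplasmic reticulum, had 393 and 333 normalised reads with MDA-MB-231 EVs, 410.2 and 394 with MCF10A EVs, and 521 and 505 with PBS. It also fell with MDA-MB-231 EVs (log2 change -0.50 ± 0.084 SE, limma adjusted p = 0.000232) and MCF10A EVs (log2 change -0.35 ± 0.084 SE, limma adjusted p = 0.00496).

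Erlin1, an endoplasmic reticulum protein that restrains SREBP activation, had 1508 and 1501 normalised reads with MDA-MB-231 EVs, 1499 and 1529 with MCF10A EVs, and 1334 and 1265 with PBS. It rose with MDA-MB-231 EVs (log2 change 0.21 ± 0.043 SE, limma adjusted p = 0.00121) and with MCF10A EVs (log2 change 0.22 ± 0.043 SE, limma adjusted p = 0.00112). Acat1, the mitochondrial thiolase, rose with MDA-MB-231 EVs (log2 change 0.22 ± 0.041 SE, limma adjusted p = 0.000509). Tmem97, a sterol-responsive membrane protein, rose with MCF10A EVs (log2 change 0.23 ± 0.036 SE, limma adjusted p = 0.000175). Between the vesicles, 4 of the 45 were higher with MDA-MB-231 EVs than with MCF10A EVs and 11 were lower, where 6.84% of all tested genes were higher and 10.1% lower. The largest differences were those of Mylip, the ubiquitin ligase induced by LXRs (log2 change 0.28 ± 0.077 SE, limma adjusted p = 0.0193), Acat1 (log2 change 0.26 ± 0.041 SE, limma adjusted p = 0.000468) and Aacs, which activates acetoacetate (log2 change 0.16 ± 0.035 SE, limma adjusted p = 0.00581), which were higher. Lpcat3, a phospholipid-remodelling enzyme (log2 change -0.26 ± 0.033 SE, limma adjusted p = 5.86e-05), Ufd1l, a partner in protein extraction for degradation (log2 change -0.20 ± 0.043 SE, limma adjusted p = 0.00373), and Tmem41b, a lipid scramblase (log2 change -0.20 ± 0.047 SE, limma adjusted p = 0.00787), were lower.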

How the data were processed

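RNA-seq had been run on 6 NIH3T3 libraries, 2 per group, made per the labels with a stranded mRNA kit. Per the submitters' processing notes, TopHat2 and edgeR were used and the human build hg19 was named, although the gene names and chromosomes of the table are those of the mouse, so genes are placed by chromosome only. The authors deposited a normalised signal for each gene, read from its values as edgeR pseudo-counts, which are reads adjusted to a common library size. Inverting that adjustment, with 5 free relative sizes of the libraries and 1 shared dispersion (0.000591), returned whole reads for 122850 of 122850 values (100.0%) within a relative 1e-06. A floor of 3 reads was 0.102 to 0.134 CPM, for counting error only.

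limma 3.58.1 (lmFit and trended eBayes under R 4.3.3) was applied to log2(value + 1) of the 15025 genes that reached 1 in 2 or more libraries, with 1 mean per group over all 6 libraries (3 residual and 11.5 prior degrees of freedom). No test had been planned for pseudo-counts, so that planned for normalised values was applied. The test and the recovery of reads were tested on simulated data. Alternatives included edgeR 4.0.16 (quasi-likelihood, 5554 genes called with MDA-MB-231 EVs against PBS, 5160 with MCF10A EVs against PBS and 2987 between the vesicles) and DESeq2 1.42.0 on the whole reads.

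The members and lists were chosen with earlier results of these data known. Every member was described by role, and of the other 54 pathway genes up to 3 called genes per direction and comparison, by size of change and with a mean of at least 50 reads. Of those 54, 51 matched the table and 45 were tested. Some genes are counted but not reported here by name. Near-identical transcripts (at least 95% over 300 bases) and exon lengths came from the GENCODE mouse annotation on GRCm38, and promoters from RefSeq.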

Additional observations from a re-analysis of the deposited data

How the results depend on the processing

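Of 51 changes called among the members, 37 were kept under all 18 alternatives (19 of 22 with MDA-MB-231 EVs against PBS, 18 of 23 with MCF10A EVs against PBS and 0 of 6 between the vesicles), and 0 changed sign. Leaving out 1 library gave 18 to 19 lower and 2 higher members with MDA-MB-231 EVs against PBS, and 17 to 19 lower and 2 higher with MCF10A EVs against PBS. With MDA-MB-231 EVs against PBS, library-total scaling gave 4 higher members (2 with the deposited scaling), and limma without trend gave 1 higher member with MCF10A EVs against PBS (2 with trend). Between the vesicles, 2 members were lower and 4 higher. The lower count was 4 with a filter of 5 CPM, 1 with quantile scaling, library totals or only the 4 libraries compared, 0 in DESeq2 and without trend, and 0 to 1 on leaving out a library. At an unadjusted p under 0.05, 3 were lower in DESeq2 and 2 without trend in limma, and edgeR called 3. The higher count was 2 in DESeq2, 0 without trend (5 at an unadjusted p under 0.05 in limma, and 5 called by edgeR) and 1 to 3 on leaving out a library. The cause was not tested. Over all genes, limma without trend called 3346, 2231 and 378 in the 3 comparisons against 5231, 4764 and 2541 with trend, and DESeq2 called 1515 between the vesicles. Leaving out a library gave 3476 to 4828 with MDA-MB-231 EVs against PBS, 2810 to 3983 with MCF10A EVs against PBS, and 721 to 1698 between the vesicles.

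Sign changes occurred only in changes that were not called. With library totals, MDA-MB-231 EVs against PBS gave 0.053 for Ebp, 0.0048 for Dhcr7, 0.045 for Srebf1 and 0.029 for Stard4, and MDA-MB-231 against MCF10A EVs gave 0.034 for Acly, 0.018 for Fdft1, 0.042 for Sqle and 0.0092 for Dhcr7. Between the vesicles quantile scaling gave 0.036 for Acly and 0.032 for Sqle, and Sqle was 0.0057 with TMM, 0.005 in edgeR and 0.0037 in DESeq2. On leaving out a library, the log2 change ran with MDA-MB-231 EVs against PBS from -0.031 to 0.0047 for Ebp and from -0.058 to 0.018 for Srebf1; with MCF10A EVs against PBS from -0.060 to 0.0029 for Dhcr7, from -0.52 to 0.054 for Nr1h3 and from -0.062 to 0.18 for Abcg1; between the vesicles from -0.033 to 0.015 for Acly, from -0.083 to 0.035 for Fdft1, from -0.034 to 0.033 for Sqle, from -0.0023 to 0.10 for Lss, from -0.069 to 0.0016 for Dhcr7, from -0.10 to 0.0032 for Insig1, from -0.11 to 0.019 for Insig2 and from -0.28 to 0.11 for Nr1h3.

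The replicate number as a block left 20 lower and 2 higher members with MDA-MB-231 EVs against PBS, 20 and 2 with MCF10A EVs against PBS (Stard4 lost, adjusted p = 0.0532), and 2 lower and 4 higher between the vesicles. Deviations of same-numbered libraries correlated at 0.011, -0.004 and 0.022 over 10215 genes. No shared deviation was seen, but with 2 libraries a group this cannot show whether same-numbered libraries shared a culture or a day. Nr1h3, Abcg1 and Nr1h5 had the fewest reads for their length in the PBS libraries, and the part of depth in their spread was not tested.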
